A study of Mus musculus with 6 samples.

Results

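The 9 annexin genes examined here were Anxa1, Anxa2, Anxa3, Anxa4, Anxa5, Anxa6, Anxa7, Anxa8 and Anxa11, out of 56748 Ensembl IDs in the count files. The family was chosen from these data, by the much higher Anxa8 mRNA in Nfkb2-/- cells, so the Anxa8 difference between genotypes is described without a test. All 9 genes passed the filter of at least 50 counts over the 6 libraries, and they are 9 of the 21849 genes tested. The RNA was polyadenylated RNA from bone marrow-derived dendritic cells (BMDCs), in 3 libraries from WT mice and 3 from global Nfkb2-/- mice, in which the gene is disrupted in every cell type and not only in DCs. Nfkb2 encodes p100, the precursor of the p52 subunit of the noncanonical NF-κB pathway. The cells of both genotypes were grown for 9 days. By the labels, they received 20 ng/mL of the growth factor GM-CSF alone for 5 days and together with 10 ng/mL of IL-4 for 4 days, while the methods of the study place the start of IL-4 at day 6. No stimulus was added, and the age and strain of the mice are not given in the labels. The study describes the 3 libraries of a genotype as independent biological replicates.

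Annexins are cytosolic proteins that bind acidic phospholipids of the membrane when calcium rises. They share a conserved core and differ in the N-terminal tail, through which several of them bind S100 proteins or other partners. In phagocytes they are known for work in membrane repair, vesicle traffic, plasminogen activation at the cell surface and the resolution of inflammation.

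Among the 9 genes, 3 lie on chromosome 14 and the others on 6 different chromosomes (GRCm38, GENCODE M21). Anxa8 is at chr14:34085981-34100571 on the plus strand, Anxa11 at chr14:25842156-25886804 on the plus strand and Anxa7 at chr14:20455260-20480133 on the minus strand. Anxa4 is at chr6:86736840-86793584 on the minus strand. The 250 bases before the RefSeq start are given for Anxa8, which chose the family, and for the upstream start of Anxa4, the one window with a match to a stricter κB form (RefSeq, GRCm38.p6). The Anxa8 window is chr14:34085729-34085978, plus strand, and the Anxa4 window is chr6:86793585-86793834, minus strand. Capitals mark every match, on either strand, to GGGNNNNNCC, a loose form of the κB site.
Anxa8: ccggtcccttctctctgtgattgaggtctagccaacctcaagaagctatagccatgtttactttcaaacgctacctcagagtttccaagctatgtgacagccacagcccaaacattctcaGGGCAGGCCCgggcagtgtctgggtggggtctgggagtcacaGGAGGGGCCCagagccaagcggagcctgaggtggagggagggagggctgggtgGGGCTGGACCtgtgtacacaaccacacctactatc
Anxa4: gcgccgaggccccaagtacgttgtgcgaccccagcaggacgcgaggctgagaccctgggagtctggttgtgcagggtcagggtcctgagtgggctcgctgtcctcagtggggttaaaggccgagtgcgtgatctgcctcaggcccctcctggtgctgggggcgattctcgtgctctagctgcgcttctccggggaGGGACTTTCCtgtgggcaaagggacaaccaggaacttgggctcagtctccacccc

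RefSeq windows of 300 bases, reaching 50 bases past the start, were matched for 7 of the 9 genes, Anxa4 and Anxa7 with 2 starts each and none for Anxa3 and Anxa6. The loose κB form was present in 8 of these 9 windows and in 50.8% of all 32851 promoter windows. Its fixed letters are all G or C, and windows were not matched for base content. The 2 Anxa7 windows overlap and hold 1 site in common. The 2 shares are therefore no test of enrichment. The stricter form GGGNNTTTCC, a subset of the loose one chosen after the sequences were seen, was in 1 of the 9 windows and in 1.63% of all. That match, GGGACTTTCC on the gene's own strand, lay 55 to 46 bases before the upstream Anxa4 start. The Anxa8 window held 3 sites matching the loose form and no match to the strict form. Of the other motifs searched on both strands, the AP-1 form TGANTCA was in the Anxa2 window (7.81% of all), TATAAA in the Anxa1 and Anxa2 windows (13.6% of all) and the PU.1 form GAGGAAGT in no annexin window (3.20% of all). A match of letters is a description of the window, and binding was not measured here.

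The Nfkb2 transcript was at 215, 154 and 355 CPM (counts divided by the TMM-adjusted size of the library) in WT replicates 1 to 3 and at 44.8, 32.3 and 32.6 CPM in Nfkb2-/- replicates 1 to 3, so that each library matched its label. It fell by 2.72 on the log2 scale (SE 0.33, edgeR adjusted p = 0.0307). Library totals ranged from 29863927 to 55623068 counts. Nfkb2-/- replicate 1 stood apart, with counts on 47952 IDs against 27692 to 33841 in the other libraries. On the first principal component of log2 CPM (45.2% of the variance) it lay at 160. The other libraries of both genotypes lay between -56.3 and -9.72, so this main axis of variation set 1 library apart and not the genotypes. WT replicate 3 stood apart in its cell type markers, with a summed level of 7 macrophage markers (Adgre1, Csf1r, Fcgr1, Mertk, Cd14, C1qa, C1qb) of 108 CPM, against 663 and 780 CPM in WT replicates 1 and 2 and 452 to 577 CPM in Nfkb2-/- libraries. All 7 DC markers (Itgax, H2-Ab1, H2-Aa, Cd74, Flt3, Zbtb46, Cd209a) were detected in all libraries, with a summed level of 4164 to 7058 CPM in WT and 5642 to 6638 CPM in Nfkb2-/- BMDCs. Most of this sum came from Cd74 and the MHC class II genes. Itgax, which encodes CD11c, was at 160, 277 and 123 CPM in WT and at 745, 769 and 716 CPM in Nfkb2-/- libraries and rose by 1.99 on the log2 scale (edgeR adjusted p = 0.0414). Zbtb46, a transcription factor of classical DCs, was lower in every Nfkb2-/- library than in any WT library (log2 fold change -0.54, edgeR adjusted p = 0.192). In such bulk RNA, fewer cells of a type and less RNA per cell cannot be told apart.

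Anxa8 mRNA, scarcely detected in WT BMDCs, was present in every Nfkb2-/- library. Anxa8 encodes an annexin first known for slowing blood coagulation by binding phospholipid. Its counts were 24, 14 and 0 in the WT libraries and 315, 382 and 454 in the Nfkb2-/- libraries, or 0.569, 0.431 and 0 CPM against 9.31, 12.6 and 8.49 CPM. Every Nfkb2-/- library lay above every WT library. The means were 0.333 ± 0.297 CPM in WT and 10.1 ± 2.17 CPM in Nfkb2-/- BMDCs (SD, n = 3 each), a ratio of 30.4. The fitted log2 fold change was 4.85, and none of the 11065 genes that averaged 5 CPM or more in a genotype exceeded it. Over all genes tested, 18 had a larger log2 fold change. Anxa8 was chosen for this rise and averaged over 5 CPM only in Nfkb2-/- BMDCs, so its rank follows from the choice. Without WT replicate 3, the library with no Anxa8 count, the log2 fold change was 4.32, and without Nfkb2-/- replicate 1 it was 4.90. Even so, Anxa8 remained the least abundant of the 9 annexins per length in both genotypes, at 0.177 and 5.39 CPM per kb of exon in WT and Nfkb2-/- BMDCs.

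**Figure D1:**
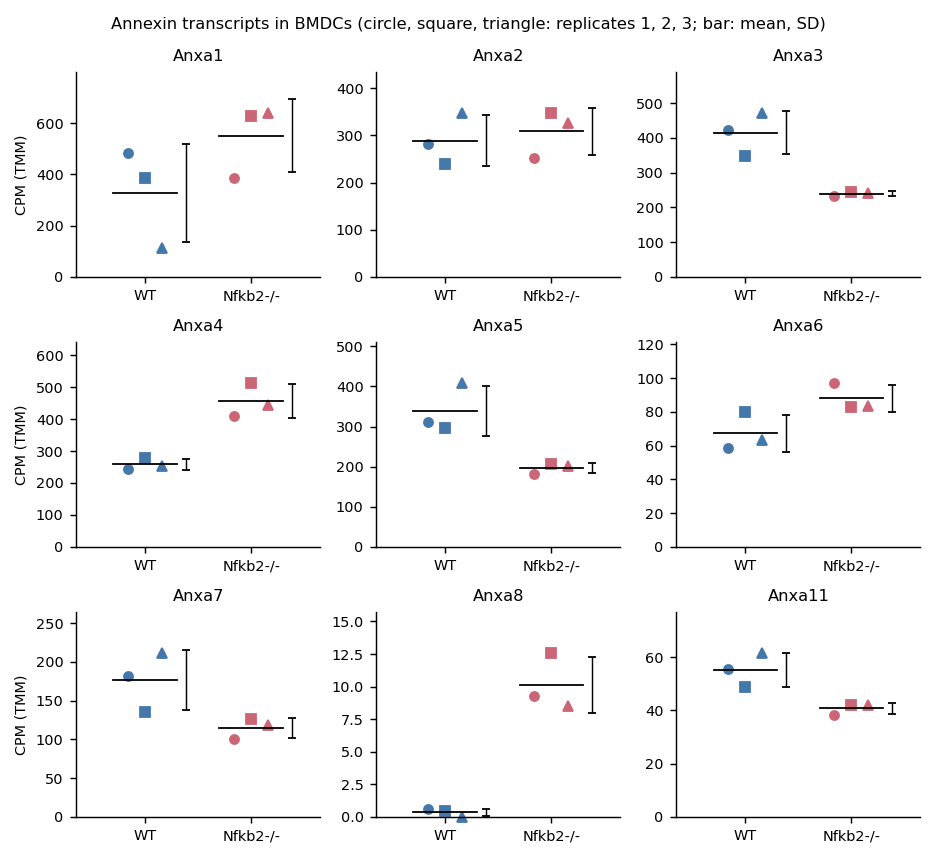
CPM (TMM-normalized, linear axis from 0) of the 9 annexins in WT and Nfkb2-/- BMDCs, each point 1 library, the horizontal line the mean and the bar beside it the SD of 3 libraries. Anxa8 lies between 0 and 0.569 CPM in WT and between 8.49 and 12.6 CPM in Nfkb2-/- libraries, Anxa3 and Anxa5 are lower and Anxa4 higher in every Nfkb2-/- library, and Anxa1 spreads most in WT.

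Most genes beside Anxa8 were too scarce to show or to lack its pattern. The 3 protein-coding genes before its start, Gm5460, A630023A22Rik and Antxrl, and the first after it, Npy4r, were under the minimum of 50 counts. Antxrl had 4, 0 and 0 counts in WT and 30, 5 and 4 in Nfkb2-/- libraries. The genotypes overlapped in CPM in each of these scarce genes, and the highest value was in Nfkb2-/- replicate 1. Gprin2 had 26, 4 and 8 counts in WT and 124, 15 and 12 in Nfkb2-/- libraries, the highest in Nfkb2-/- replicate 1, and Syt15 had 26, 43 and 30 against 66, 12 and 40 counts. In both genes the genotypes overlapped. A630023A22Rik overlaps Anxa8 on the opposite strand and held 1.18% as many counts as Anxa8, nearly all in Nfkb2-/- replicate 1.

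The genes nearest to Anxa8 in pattern, by the root mean square difference of mean-centred log2 CPM over the 6 libraries, were Cxcr2, Rnase2a, Cd34, Nes and Slamf8, out of 11064 genes compared. They encode a neutrophil chemokine receptor, an eosinophil-associated ribonuclease, a sialomucin of progenitor cells, the intermediate filament nestin and a receptor of the SLAM family, in that order. Their differences from Anxa8 ranged from 0.80 to 1.02 on the log2 scale. Cxcr2 was at 4.41, 12.0 and 1.31 CPM in WT and at 93.1, 91.5 and 65.1 CPM in Nfkb2-/- libraries. Cd34 was at 1.64, 4.61 and 0.585 CPM against 27.8, 27.7 and 27.1 CPM. All 5 genes were lowest in WT replicate 3 and higher in every Nfkb2-/- library than in any WT library. They were picked for likeness to a gene that itself was chosen for this contrast, so their genotype differences carry no test. Their low values in WT replicate 3 likewise follow from that choice. Rnase2a belongs to a family of near-identical genes, and its counts are uncertain for that reason.

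**Figure D2:**
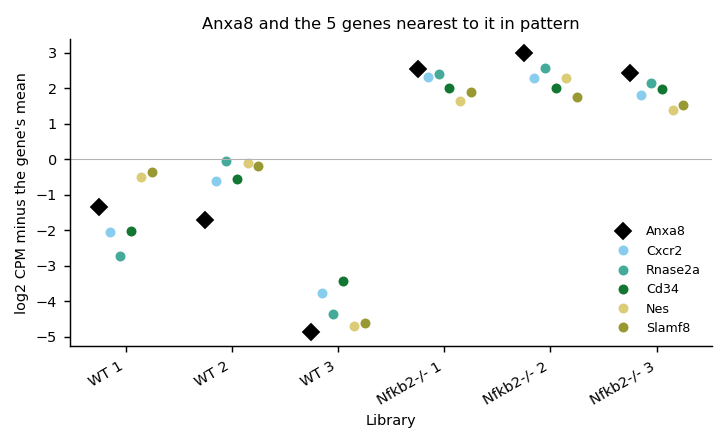
Log2 CPM minus each gene's mean over the 6 libraries, for Anxa8 (black diamonds) and the 5 genes with the smallest root mean square difference from it (circles). All 6 genes lie lowest in WT replicate 3 and above 0 in the 3 Nfkb2-/- libraries, and Anxa8 spans the widest range.

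Markers of other cell types were measured beside Anxa8. The summed level of 4 eosinophil markers (Epx, Prg2, Siglecf, Ear1) was 21.4, 69.3 and 10.3 CPM in WT and 83.7, 106 and 87.4 CPM in Nfkb2-/- libraries, mostly Siglecf, while Epx, Prg2 and Ear1 overlapped between genotypes. The sum of 5 epithelial markers was 31.8 to 69.4 CPM in WT and 143 to 184 CPM in Nfkb2-/- libraries. It consisted mainly of Cdh1, the adhesion protein E-cadherin, at 19.7 to 62.8 CPM in WT and 132 to 173 CPM in Nfkb2-/- libraries. Epcam was at 3.96 to 12.0 CPM in WT and overlapped with 6.26 to 10.9 CPM in Nfkb2-/- libraries, while the keratins Krt8, Krt18 and Krt19 stayed at or under 1.004 CPM in all libraries. Of these 9 markers edgeR called none, DESeq2 called Siglecf and Cdh1 (adjusted p = 0.0436 and 6.90e-05) and limma voom called Cdh1 (adjusted p = 0.0369). Of 9 neutrophil markers, 8 were tested by edgeR and none was called. DESeq2 called Ngp and Ltf, both with a lower mean in Nfkb2-/- BMDCs (adjusted p = 0.00613 and 0.0393). The genotypes overlapped in every marker of this list, these included, and S100a8 went the other way (log2 fold change 0.37). The list sums were 84.1 to 231 CPM in WT and 118 to 126 CPM in Nfkb2-/- libraries. Of 6 mast cell and basophil markers, summing to 9.02 to 14.4 CPM in WT and 6.53 to 7.21 CPM in Nfkb2-/- libraries, Cpa3, a mast cell protease, fell by 1.84 on the log2 scale (edgeR adjusted p = 0.0413). Gata2 had a log2 fold change of 1.47 (edgeR adjusted p = 0.119, DESeq2 adjusted p = 0.0144). The part of any of these in the Anxa8 level was not tested.

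The other 8 annexins differed far less between genotypes. By the quasi-likelihood test of edgeR (Benjamini-Hochberg adjusted p under 0.05 and fold change over 1.2), 0 of the 8 were called, against 1.14% of all genes tested. At an unadjusted p under 0.05 there were 5, Anxa3, Anxa4, Anxa5, Anxa7 and Anxa11, against 17.1% of all genes. With DESeq2, 3 of the 8 were called (Anxa3, Anxa4 and Anxa5), against 8.65% of all genes, and with limma voom 1, Anxa4, against 2.23%. In 2 of the 8, Anxa4 and Anxa6, all Nfkb2-/- values lay above all WT values, which held for 12.7% of all genes. In 4 of the 8, Anxa3, Anxa5, Anxa7 and Anxa11, they lay below, against 12% of all genes. Anxa1 and Anxa2 overlapped. The median log2 fold change of the 8 was -0.17, beside 0.076 over all genes.

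**Figure D3:**
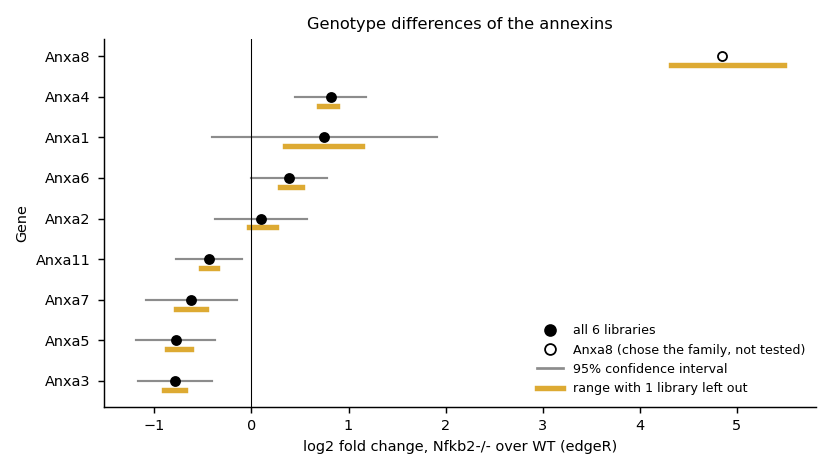
Log2 fold change of each annexin, Nfkb2-/- over WT, from edgeR with all 6 libraries (points), with the 95% confidence interval (grey) and the range of the fit when 1 library is left out (yellow). Anxa8 (open point, 4.85) is shown without an interval because it chose the family. The intervals of Anxa3, Anxa5, Anxa7 and Anxa11 lie below 0, that of Anxa4 lies above 0, and those of Anxa1, Anxa2 and Anxa6 include 0.

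Anxa4 had the largest positive difference of the 8 with all 6 libraries in edgeR, although Anxa1 exceeded it in 5 of the 13 alternatives (among them limma voom and the fits without WT replicate 1, WT replicate 2 or Nfkb2-/- replicate 1). It encodes an annexin that aggregates membranes and is best known from secretory epithelia. Its level was 244, 278 and 254 CPM in WT and 409, 514 and 444 CPM in Nfkb2-/- libraries. The groups were separated by more than the range within either of them. The log2 fold change was 0.82 (SE 0.16, 95% interval 0.45 to 1.18, edgeR adjusted p = 0.0614), just over the threshold. Under the 13 alternative fits it was 0.69 to 0.89, with adjusted p from 9.36e-05 to 0.332.

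Anxa3 and Anxa5 were the annexins with the largest negative differences. Anxa5 is the phosphatidylserine-binding protein used as a probe of dying cells, and Anxa3 is an abundant annexin of myeloid cells. Anxa3 was at 422, 349 and 472 CPM in WT and at 232, 246 and 240 CPM in Nfkb2-/- libraries. Anxa5 was at 311, 296 and 409 CPM in WT and at 182, 206 and 202 CPM in Nfkb2-/- libraries. In both genes the highest Nfkb2-/- library lay below the lowest WT library, and the Nfkb2-/- libraries lay close together. The log2 fold change was -0.79 for Anxa3 (SE 0.16, 95% interval -1.17 to -0.41, edgeR adjusted p = 0.0711), and 0.000309 to 0.305 was the range of adjusted p over the alternatives. For Anxa5 it was -0.78 (SE 0.17, 95% interval -1.19 to -0.37, edgeR adjusted p = 0.0876), with adjusted p from 0.00191 to 0.312. Gm42603, a transcript on the same strand inside Anxa3, held 10.7% as many counts as Anxa3, so that reads of the gene could be split between them.

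Anxa7 and Anxa11, annexins with long N-terminal tails, showed smaller differences in the same direction. Anxa7 binds the calcium sensor sorcin, and Anxa11 binds ALG-2 and links RNA granules to lysosomes. Anxa7 was at 182, 136 and 212 CPM in WT and at 100, 126 and 118 CPM in Nfkb2-/- libraries. Anxa11 was at 55.5, 48.9 and 61.6 CPM in WT and at 38.3, 42.0 and 42.1 CPM in Nfkb2-/- libraries. The groups did not overlap, but in both genes the nearest libraries of the genotypes were close. The log2 fold changes were -0.62 (SE 0.20, edgeR adjusted p = 0.179) and -0.44 (SE 0.15, edgeR adjusted p = 0.190). Anxa6, which carries a duplicated core and acts in cholesterol and endosome traffic, was at 58.8, 79.8 and 63.5 CPM in WT and at 97.2, 83.0 and 83.6 CPM in Nfkb2-/- libraries. WT replicate 2 nearly reached the Nfkb2-/- values. Its log2 fold change was 0.39 (95% interval -0.0043 to 0.77, edgeR adjusted p = 0.298).

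Within WT, 5 of the 9 annexins (Anxa2, Anxa3, Anxa5, Anxa7 and Anxa11) were lowest in replicate 2 and highest in replicate 3, as were 23.7% of all genes. The same held for 4 of the 7 DC markers and for 5 of 6 markers of mature DCs (Ccr7, Fscn1, Cd40, Cd83, Ccl22, Ccl17). The sums of the mature DC markers were 11386, 8186 and 16376 CPM in WT and 10039, 9824 and 9274 CPM in Nfkb2-/- libraries. Fscn1, Cd83 and Cd40 lay below all WT values in every Nfkb2-/- library and were not called by edgeR, whereas DESeq2 called Fscn1 and Cd83 (adjusted p = 0.000501 and 0.0145). Ccl17 rose by 2.92 on the log2 scale (edgeR adjusted p = 0.0307). The part of these markers in the annexin levels was not tested. Without WT replicate 3, the log2 fold change was -0.69 for Anxa3, -0.62 for Anxa5, -0.47 for Anxa7 and -0.35 for Anxa11.

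Anxa1 and Anxa2, the annexins with the best known S100 partners, overlapped between genotypes. Anxa1 is induced by glucocorticoids and signals through formyl peptide receptors to dampen inflammation. It was at 482, 387 and 112 CPM in WT and at 385, 626 and 640 CPM in Nfkb2-/- libraries. WT replicate 3 was far below the other libraries, and Nfkb2-/- replicate 1 was below WT replicate 1. The log2 fold change was 0.75 (SE 0.49, 95% interval -0.41 to 1.91, edgeR adjusted p = 0.489), and without WT replicate 3 it was 0.35. Anxa2 forms a complex with S100a10 that holds plasminogen and its activator at the cell surface. It was at 281, 239 and 347 CPM in WT and at 252, 348 and 327 CPM in Nfkb2-/- libraries. Its log2 fold change was 0.10 (95% interval -0.38 to 0.57, edgeR adjusted p = 0.845), and it turned negative, at -0.02, without WT replicate 2 or without Nfkb2-/- replicate 2. The interval includes a difference of that size in either direction.

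The low Anxa1 level in WT replicate 3 came with other low myeloid transcripts. All 7 macrophage markers were lowest in this library. Fpr1, a formyl peptide receptor, was at 6.88, 19.3 and 2.68 CPM in WT and at 7.44, 7.94 and 8.53 CPM in Nfkb2-/- libraries. Plaur, the urokinase receptor, was at 59.1, 73.8 and 6.33 CPM in WT and at 57.8, 77.5 and 79.1 CPM in Nfkb2-/- libraries. Apart from WT replicate 3, the genotypes overlapped in both genes. Plaur was picked after its values were seen, and the part of macrophage content in the Anxa1 level was not tested.

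**Figure D4:**
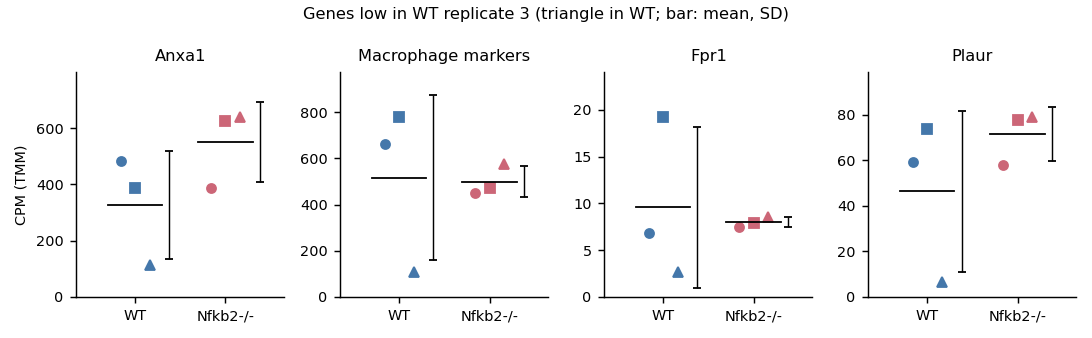
CPM (TMM-normalized) of Anxa1, the sum of 7 macrophage markers, Fpr1 and Plaur in WT and Nfkb2-/- libraries, each point 1 library, with the mean and SD of 3 libraries. WT replicate 3 (triangle) is the lowest point in all 4 panels, at 112 CPM for Anxa1 and 108 CPM for the macrophage markers.

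Summed over the 9 genes, the annexin level did not separate the genotypes. The sum was 2037, 1813 and 1931 CPM in WT (1927 ± 112, SD, n = 3) and 1706, 2203 and 2105 CPM in Nfkb2-/- libraries (2005 ± 264, SD, n = 3). Shares were taken of another sum, that of CPM per kb of exon. The shares of Anxa3, Anxa4, Anxa5, Anxa7, Anxa8 and Anxa11 did not overlap between genotypes and those of Anxa2 and Anxa6 did. The share of Anxa1 was 25.53% in the highest WT library and 25.54% in the lowest Nfkb2-/- library. Per kb of exon, Anxa5 led in WT with 31.0% ± 5.51 of the summed annexin level (SD, n = 3), followed by Anxa3 with 18.4% ± 2.29 and Anxa1 with 18.2% ± 10.5. In Nfkb2-/- BMDCs Anxa1 led with 30.6% ± 4.47, followed by Anxa5 with 18.3% ± 1.34 and Anxa4 with 16.1% ± 1.14. Anxa8 accounted for 0.0287% ± 0.0251 in WT and 0.885% ± 0.162 in Nfkb2-/- BMDCs.

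The order of neighbours was clear only in places. In WT, the libraries of Anxa3 and Anxa1, of Anxa1 and Anxa2 and of Anxa7 and Anxa6 overlapped in level per kb, whereas Anxa5 lay above Anxa3 and Anxa2 above Anxa4 in all libraries. In Nfkb2-/- BMDCs, Anxa5 and Anxa4 overlapped, as did Anxa4 and Anxa2, while Anxa1 lay above Anxa5 and the 4 lowest, Anxa6, Anxa7, Anxa11 and Anxa8, were separate from each other. The top of the order depended on the length used. With the length of the longest transcript in place of all exons, Anxa3 led in WT with 26.4%, and in Nfkb2-/- BMDCs Anxa4 was at rank 2 with 17.5% and Anxa5 at rank 5 with 11.5%, whereas Anxa1 stayed first with 32.6%.

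Within a library, the ratio of Anxa5 to Anxa4 per kb of exon was 3.33, 2.78 and 4.21 in WT and 1.17, 1.05 and 1.19 in Nfkb2-/- BMDCs. The ratio of Anxa3 to Anxa4 was 2.20, 1.60 and 2.37 in WT and 0.725, 0.610 and 0.690 in Nfkb2-/- BMDCs. The 3 WT libraries lay above the 3 Nfkb2-/- libraries in both ratios. These ratios do not depend on how libraries are scaled, and another gene length multiplies all 6 values of a ratio alike. They were formed after the values of the genes were seen and carry no test.

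**Figure D5:**
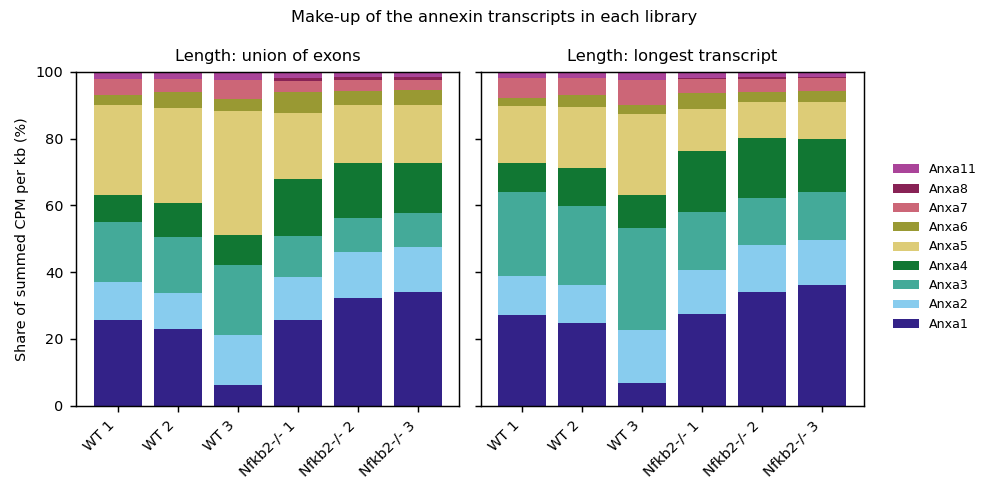
Share of each annexin in the summed CPM per kb of the 9 annexins, 1 bar per library, with the length of all exons (left) and of the longest transcript (right). The share of Anxa4 is larger and those of Anxa3 and Anxa5 smaller in all 3 Nfkb2-/- libraries than in the WT libraries, and WT replicate 3 has the smallest share of Anxa1 (6.23% with all exons).

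A list of 36 partner genes of annexins was examined beside the family, of which 33 passed the filter. None was called by edgeR or by limma voom, against 1.14% and 2.23% of all genes. At an unadjusted p under 0.05 there were 7, against 17.1% of all genes, and DESeq2 called 4, against 8.65%. Their median log2 fold change was -0.17. The values of 2 (S100a6 and Plau) lay above and of 6 (Gca, Chmp4b, Capn2, Plscr1, Plscr3 and Cd63) below all WT values in every Nfkb2-/- library, against 12.7% and 12% of all genes. The other annexin genes of the mouse were at low levels. Anxa9, the most abundant of them, was at 3.96, 4.03 and 2.75 CPM in WT and at 3.31, 2.77 and 2.06 CPM in Nfkb2-/- libraries, Anxa13 did not exceed 0.886 CPM, and Anxa10 was under the minimum of 50 counts.

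Among the listed S100 proteins that bind annexins, S100a11, the partner of Anxa1, was the most abundant per length. It was at 363, 256 and 414 CPM in WT and at 280, 284 and 279 CPM in Nfkb2-/- libraries, with overlapping groups (log2 fold change -0.29, edgeR adjusted p = 0.506). S100a10, the partner of Anxa2, was at 170, 168 and 284 CPM against 147, 219 and 188 CPM and overlapped likewise. S100a6 was one of the genes called by DESeq2, at 26.9, 26.0 and 26.5 CPM in WT and 32.3, 45.3 and 43.6 CPM in Nfkb2-/- libraries (log2 fold change 0.61, edgeR adjusted p = 0.135, DESeq2 adjusted p = 0.0417). S100a10 and S100a6 were picked after their values were seen.

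Of the most abundant genes of the other groups, Cd63 did not overlap between genotypes. Those that overlapped included Sri, which encodes sorcin, Plgrkt, a plasminogen receptor, and Ahnak, a giant scaffold protein that binds Anxa2 and S100a10. Their log2 fold changes were -0.27, 0.21 and 0.11, with edgeR adjusted p of 0.595 or more. Cd63, a tetraspanin of late endosomes, was at 294, 220 and 306 CPM in WT and at 150, 150 and 163 CPM in Nfkb2-/- libraries. All Nfkb2-/- libraries lay below all WT libraries (log2 fold change -0.82, SE 0.17, edgeR adjusted p = 0.0717, DESeq2 adjusted p = 0.000628). Gca, which encodes the calcium-binding protein grancalcin, and Plscr1, a phospholipid scramblase, were the other genes that DESeq2 called, with log2 fold changes of -0.83 and -0.78 and edgeR adjusted p of 0.0792 and 0.125. Plau, the urokinase that activates plasminogen, had the largest difference of the genes without overlap, at 12.0, 28.2 and 2.20 CPM in WT and 43.2, 52.6 and 46.2 CPM in Nfkb2-/- libraries (log2 fold change 1.74, SE 0.73, edgeR adjusted p = 0.283). Its WT values spread widely and were lowest in replicate 3. Gca, Plscr1 and Plau were picked after their values were seen.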

How the data were processed

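RNA-seq libraries of 3 WT and 3 Nfkb2-/- BMDC cultures were grouped by the genotype and replicate number in their labels. The authors deposited whole-number read counts per Ensembl gene and library, without normalization. The submitters' processing notes name HISAT2 and the builds GRCm38 and mm10, while the counting tool, annotation release and use of strand are not given in the sources used here, so counts of overlapping and antisense genes are uncertain. A deposited table joining the libraries held the same counts and was not used.

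Of 56748 IDs, those with a gene name and at least 50 counts over the 6 libraries were tested (21849). Counts on IDs without a name (1.01% to 1.75% per library) stayed out of library sizes and tests. Counts were scaled by TMM and compared with edgeR 4.0.16 (glmQLFit, glmQLFTest, R 4.3.3) without covariates, adjusted by Benjamini-Hochberg over all genes tested. A gene was called at adjusted p under 0.05 and fold change over 1.2. The standard error is the log2 fold change divided by the square root of F. DESeq2 1.42.0, limma voom (limma 3.58.1), RLE factors, total counts, filterByExpr, no filter, a replicate block and each library left out were the 13 alternatives. Levels between genes are CPM per kb of exon in GENCODE M21. At this depth 1 count was worth 0.0187 to 0.0344 CPM, and intervals cover the spread between these cultures. Counting error matters at low counts, such as those of Anxa8 in WT and of its neighbours. On simulated counts for this comparison (20856 genes), edgeR found 72 of 100 genes changed by 2 and 93 of 100 changed by 3 on the log2 scale, with 8 unchanged among 173 called. DESeq2 found 88 and 99, with 74 unchanged among 261. The simulation did not include changes as small as those of most annexins. It drew each gene independently, without shifts shared by many genes of a library such as those of WT replicate 3. Its rates of recovery and error may therefore not hold for the real libraries.

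Named genes were the 9 annexins, Nfkb2, the most abundant or called gene of each partner group, the 5 genes most like Anxa8 (log2 CPM, prior count 2, among genes averaging 5 CPM or more in WT or Nfkb2-/- cells) and 3 protein-coding neighbours on each side of Anxa8, with the others said to be picked after their values were seen. The members, partner genes and marker lists were chosen with earlier results of these data known. The most abundant gene of 1 partner group is not reported here.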

Additional observations from a re-analysis of the deposited data

How the results depend on the processing

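The number of genes called between genotypes, 248 in the main analysis, was 1890 with DESeq2, 488 with limma voom, 397 with filterByExpr, 1625 with no filter beyond 1 count and 0 with the replicate block, and 0 to 1248 with 1 library left out (0 without WT replicate 1 or any of the Nfkb2-/- replicates, 1248 without WT replicate 2). The number of partner genes called, 0 in the main analysis, was 4 with DESeq2, 2 with no filter beyond 1 count, and 0 to 2 with 1 library left out. Anxa4 passed the adjusted threshold with DESeq2 (0.80), limma voom (0.81), total counts (0.89) and filterByExpr (0.82), Anxa3 (-0.81) and Anxa5 (-0.80) with DESeq2, and all 3 without WT replicate 2, these values being log2 fold changes. With 1 library left out the log2 fold changes were 0.69 to 0.88 for Anxa4, -0.90 to -0.69 for Anxa3, -0.87 to -0.62 for Anxa5, 4.32 to 5.49 for Anxa8 and -0.0246 to 0.253 for Anxa2. Anxa2 was the one annexin whose direction turned in any of the 13 alternatives. The cause was not tested. The labels do not say whether same-numbered libraries shared a preparation. Their deviations from the genotype means correlated by 0.26, 0.15 and 0.02 for replicates 1, 2 and 3. Differently numbered libraries were not compared in this way, so these values cannot decide it. The replicate block changed no annexin's direction, and with it none of the 8 annexins tested passed the threshold. Depth limits Anxa8 in WT, where its level rests on at most 24 counts per library.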
